A study of Mus musculus with 4 samples.

Results

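The regions described here are the distal sites at which Runx2 was bound in proliferating preosteoblasts but at neither later stage of differentiation. They were selected on the measured peak calls. Overlapping peaks of the 3 stages (1 bp or more) were joined, which gave 67703 regions, and a region was kept when it held a peak at day 0 only, when its centre lay more than 1 kb and at most 100 kb from the nearest start site of a protein-coding gene, and when that centre lay in no protein-coding exon. Of the 67703 merged regions 2716 (4.01%) met this rule, and each held 1 day 0 peak. Of 3792 regions with a day 0 peak alone, 71.6% were distal in this sense, 899 lay over 100 kb from any such start site, 116 lay within 1 kb of one and 61 fell in an exon.

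The study followed Runx2 occupancy by chromatin immunoprecipitation and sequencing (ChIP-Seq) with the M70 antibody in MC3T3-E1 subclone 4 cells, a C57BL/6 mouse line derived from calvaria, at passages 28 to 31. Cells were taken at day 0 (proliferation, preosteoblasts), day 9 (matrix deposition) and day 28 (mineralization), and differentiation was induced with ascorbic acid and beta-glycerophosphate. Each stage was given as 1 peak list from 2 pooled libraries, scored against input DNA from matrix-depositing cells, with no input from day 0 or day 28 cells. A clonal line of this kind stands for calvarial osteoblasts in culture only, and no value of a single library was available, so that no difference between stages could be tested against replicates. The day 0 list was the shortest, with 25457 peaks against 60596 (day 9) and 40330 (day 28), although per the study's library list its libraries had the most raw reads. The peak lists themselves hold no read counts, and the part of depth in the results was not tested. All intervals below are 95% intervals that cover counting error over regions and not the spread between cultures.

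Runx2 is the Runt domain transcription factor required for osteoblast formation, and it binds DNA with its partner Cbfb at a short sequence, the RUNX motif TGTGGT. Distal binding sites of lineage factors often lie in enhancers, where several factors bind close together. AP-1 dimers of the Fos and Jun families respond to growth factors and mitogens, and TGANTCA (N stands for any base) was counted here as their motif. Matches were not split by the base at N, and not every match need be an AP-1 site. The TEAD factors bind GGAATG and bring the Hippo pathway coactivators Yap and Taz to DNA.

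Sequences at the centres of 6 of the strongest day 0 only regions are shown because they display the motifs counted below. The first 4 are high-scoring regions with the RUNX motif within 50 bp of the centre, and the last 2 are the highest-scoring regions without one there. Each run is centred on the region and read 5′ to 3′ on the plus strand of mm9, with the RUNX motif (TGTGGT, or ACCACA where it lies on the minus strand), the AP-1 motif and the TEAD motif in capitals.
Impad1 region, chr4:4749391-4749591: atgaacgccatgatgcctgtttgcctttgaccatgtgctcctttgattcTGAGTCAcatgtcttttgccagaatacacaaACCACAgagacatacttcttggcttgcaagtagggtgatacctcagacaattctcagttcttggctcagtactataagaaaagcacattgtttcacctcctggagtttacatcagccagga
Gm9956 region, chr10:56508130-56508330: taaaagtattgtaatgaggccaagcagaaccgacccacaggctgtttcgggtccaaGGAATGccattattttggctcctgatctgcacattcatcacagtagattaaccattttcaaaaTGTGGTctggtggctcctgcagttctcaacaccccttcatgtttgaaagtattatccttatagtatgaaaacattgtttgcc
Amigo2 region, chr15:97087978-97088178: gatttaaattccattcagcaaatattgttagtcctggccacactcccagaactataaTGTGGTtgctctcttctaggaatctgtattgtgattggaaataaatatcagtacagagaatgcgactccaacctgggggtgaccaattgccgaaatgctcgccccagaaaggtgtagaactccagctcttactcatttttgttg
Glis3 region, chr19:28451140-28451340: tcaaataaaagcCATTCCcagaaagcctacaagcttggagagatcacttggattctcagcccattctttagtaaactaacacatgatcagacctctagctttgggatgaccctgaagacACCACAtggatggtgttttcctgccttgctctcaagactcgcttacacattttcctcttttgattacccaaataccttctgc
Plscr2 region, chr9:92168241-92168441: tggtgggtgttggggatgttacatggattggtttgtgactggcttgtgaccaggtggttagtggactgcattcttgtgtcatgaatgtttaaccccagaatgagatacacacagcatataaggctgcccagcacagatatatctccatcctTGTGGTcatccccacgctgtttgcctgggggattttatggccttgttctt
4930425F17Rik region, chr2:131513642-131513842: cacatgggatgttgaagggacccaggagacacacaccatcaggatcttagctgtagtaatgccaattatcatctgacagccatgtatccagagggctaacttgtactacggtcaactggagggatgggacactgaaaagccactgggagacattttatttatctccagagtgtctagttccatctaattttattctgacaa
Distances are to the middle of a motif, and a motif was counted below only where all of it lay within 50 bp of the centre. The Impad1 sequence held an AP-1 motif 48 bp before the centre, which reaches past that limit, and a RUNX motif 17 bp before it. In the Gm9956 sequence a TEAD motif lay 41 bp before and a RUNX motif 22 bp after the centre. The Amigo2 sequence held a RUNX motif alone, at 40 bp before the centre, and the Glis3 sequence held a RUNX motif 22 bp after and a TEAD motif 85 bp before it. In the Plscr2 sequence the RUNX motif lay 54 bp from the centre, just outside the window counted, and the 4930425F17Rik sequence held none of the 3 motifs.

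Day 0 only regions were mostly weak peaks. The score of a peak is 10 times the negative log10 of its p-value, and the lists hold peaks from a score of 100 upwards. Among the 2716 regions the lowest score was 100, the median 152 (148.53 to 155) and the highest 1505. Nearly equal numbers lay on either side of a score of 150, with 1333 regions (49.1%) between 100 and 150, and 359 regions (13.2%) reached 300. The distal regions bound at all stages had a median day 0 score of 333, those shared by days 0 and 28 of 199 and those shared by days 0 and 9 of 167. The median day 0 only region thus stood at the 22.8 percentile of all day 0 peaks. Since presence and absence of a peak made the selection, these scores are a description and were given no test. The number of members depended on the threshold, with 822 left when a score of 200 was required of day 0 peaks and 5511 when each list was cut to its 25457 top-scoring peaks. The weakest members, nearest to Hist1h2bn, Agpat3 and Nat8l, had scores of 100, 100.02 and 100.02.

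**Figure D1:**
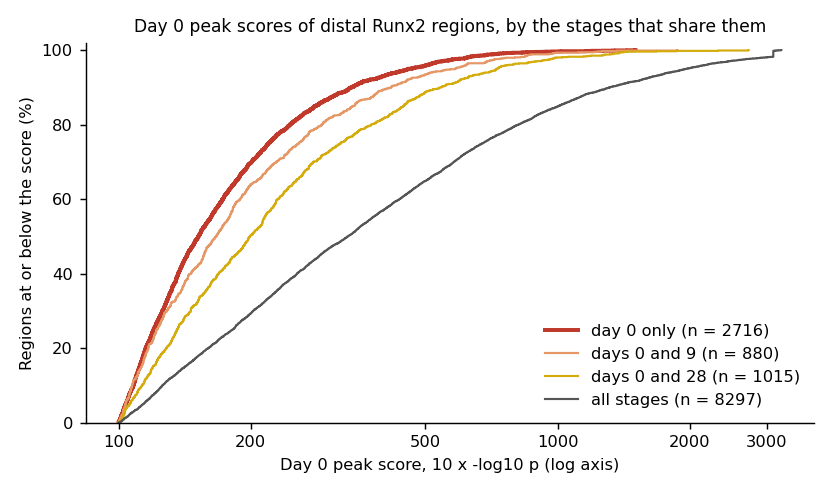
Cumulative share of distal regions (vertical axis, %) at or below a given day 0 peak score (horizontal axis, log scale) for regions bound at day 0 only, days 0 and 9, days 0 and 28, and all stages. The day 0 only curve lies furthest to the left, with a median of 152 against 333 for regions bound at all stages.

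The strongest members lay near genes of varied function. The top score, 1505, belonged to chr4:4748961-4750021, which lay 29.0 kb before the start of Impad1, a Golgi phosphatase needed for skeletal growth. The second, 1439, belonged to chr9:92168064-92168617, which lay 2.10 kb before the start of Plscr2, a phospholipid scramblase. The third was an unusually wide region of 2797 bp, chr2:131512344-131515140, with a score of 1352, which lay 40.2 kb beyond the start of 4930425F17Rik, a gene of unknown function. None of these had a day 9 or day 28 peak within 8 kb, and for Impad1 and Plscr2 the nearest such peak lay 28.1 and 22.3 kb away.

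The next regions by score lay near Jazf1, a zinc finger cofactor (1333), Gm9956 (1266), Ankrd1, an ankyrin repeat protein and well-known Yap target (1192), Lpp, a LIM domain protein of focal adhesions (1167), Nov, a matricellular protein of the CCN family (1160), Sh3rf2, a RING finger protein (1021), and Rarb, a retinoic acid receptor (1010). The Lpp, Sh3rf2 and Rarb regions were intronic. Of the 10 strongest regions 3 held a RUNX motif within 50 bp of the centre, those near Impad1, Gm9956 and Sh3rf2. The Rarb region held an AP-1 motif, and the Gm9956 region a TEAD motif as well. The nearest peak of another stage lay 1.47 kb from the Jazf1 region, 2.04 kb from the Lpp region, 2.07 kb from the Rarb region, 50.7 kb from the Nov region and 55.9 kb from the Sh3rf2 region. Strong day 0 only binding thus occurred both beside binding of later stages and far from it.

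At the edges of the distance rule, an intronic region of Nid1 lay just inside at 1.009 kb from a start site, and a region near Asph just outside at 0.997 kb. At the upper edge a region near Tgif1 lay inside at 99.519 kb and one near Rai14 outside at 100.045 kb. The closest call on overlap was the region near Afap1, which abutted a peak of another stage with a gap of 0 bp, and the smallest overlap that led a day 0 peak to be counted as shared was 1 bp.

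The members lay at a median of 22.9 kb from the nearest start site, and 49.3% lay before it rather than beyond it. Introns held 46.7% of them (44.8 to 48.6), against 55.9% of distal day 9 only regions, 52.0% of distal day 28 only regions and 49.0% of distal regions bound at all stages. A further 18.2% lay within 20 kb before a start site, and 35.1% in the remaining intergenic space, compared with 28.1% at day 9 only. Regions shared by days 0 and 28 were placed much like the members, with 47.5% in introns, 35.5% in that intergenic space and a median distance of 22.2 kb. The most distant bin, 50 to 100 kb, held 23.2% of the day 0 only regions (21.6 to 24.8), as compared with 17.9% of regions bound at all stages (17.1 to 18.8), 17.8% at day 9 only and 22.3% at day 28 only. Their sequence was poorer in GC, with a median of 47.5% in the central 200 bp against 52.5% for day 9 only, 49.5% for day 28 only and 52.0% for all stages, while regions shared by days 0 and 28 had the same median of 47.5%. The median width was 754 bp, wider than the 473 bp of day 9 only peaks and the 586 bp of day 28 only peaks, but the other regions with a day 0 peak were wider still, with 785 bp for days 0 and 9, 837 bp for days 0 and 28 and 1054 bp for all stages. The median scores in introns, upstream sequence and other intergenic sequence were 152, 151 and 153.

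The distance from day 0 only regions to binding at later stages varied widely. By the selection rule no member overlapped a peak of a later stage. These distances were not measured for randomly placed regions, so whether members lay nearer to or further from later binding than such regions was not tested. The median distance to the nearest day 9 or day 28 peak was 6.89 kb. A peak of a later stage lay within 1 kb of 370 regions (13.6%) and within 5 kb of 42.1%, whereas 1572 regions (57.9%, 56.0 to 59.7) had none within 5 kb and 224 (8.25%) had none within 50 kb. With centres within 250 bp required for sharing, the share with none within 5 kb was 42.7%. That rule lets in regions that overlap a later peak away from its centre, so a lower share follows in part by construction.

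The RUNX motif was concentrated at the centres of the day 0 only regions. It was found within 50 bp of the centre in 523 of 2716 regions (19.3%, 17.8 to 20.8) and in 6.37% of flanks of equal length at 450 to 500 bp, a ratio of 3.02. Over all 43666 distal regions the share was 28.0%. It was 33.3% in day 9 only regions, a difference of -14.0 percentage points (-15.6 to -12.3). CACACACA, a repeat that was present at 25.1% of day 9 only centres and 2.03% of day 0 only centres, moved with this result, and the difference was -12.1 with such regions left out of both. Against regions bound at all stages, with 21.8%, the difference was -2.56 (-4.26 to -0.80), and against those shared by days 0 and 28, with 21.1%, it was -1.83 (-4.81 to 1.01). For regions shared by days 0 and 9, with 23.75%, it was -4.49 (-7.75 to -1.40). Against day 28 only regions, with 23.2%, it was -3.99 (-5.99 to -1.96), but it turned to 0.51 (-2.18 to 3.24) when a p-value of 1e-20 was required in all lists. The part of the greater width of day 0 only peaks in these differences was not tested. With a window of 100 bp on either side the difference from day 28 only was -1.70 (-4.06 to 0.68).

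AP-1 and TEAD motifs were more frequent in the day 0 only regions than in regions of the later stages. TGANTCA was present in 299 centres (11.01%, 9.86 to 12.2) and 3.39% of flanks, a ratio of 3.25, against 4.91% over all distal regions. At day 9 only the share was 2.69%, hardly different from its flanks at 2.55%, and at day 28 only it was 5.32%. The day 0 only regions exceeded these by 8.32 points (7.17 to 9.58) and 5.69 points (4.33 to 7.10). With CACACACA regions left out of both, the day 9 only share was 3.31% and the difference 7.74 points (6.56 to 9.02). GGAATG was present in 11.8% of day 0 only centres (10.6 to 13.1) and 5.89% of flanks, a ratio of 2.00, against 6.90% over all distal regions. At day 9 only it was found in 4.36% of centres and 4.86% of flanks, and at day 28 only in 8.42% of centres. Here the day 0 only regions were higher by 7.42 points (6.22 to 8.72) and 3.36 points (1.87 to 4.89). Without CACACACA regions the day 9 only share was 5.43% and the difference 6.41 points (5.17 to 7.75). Flank shares were not recounted without these regions for either motif, so centring at day 9 only was not judged apart from the repeat.

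**Figure D2:**
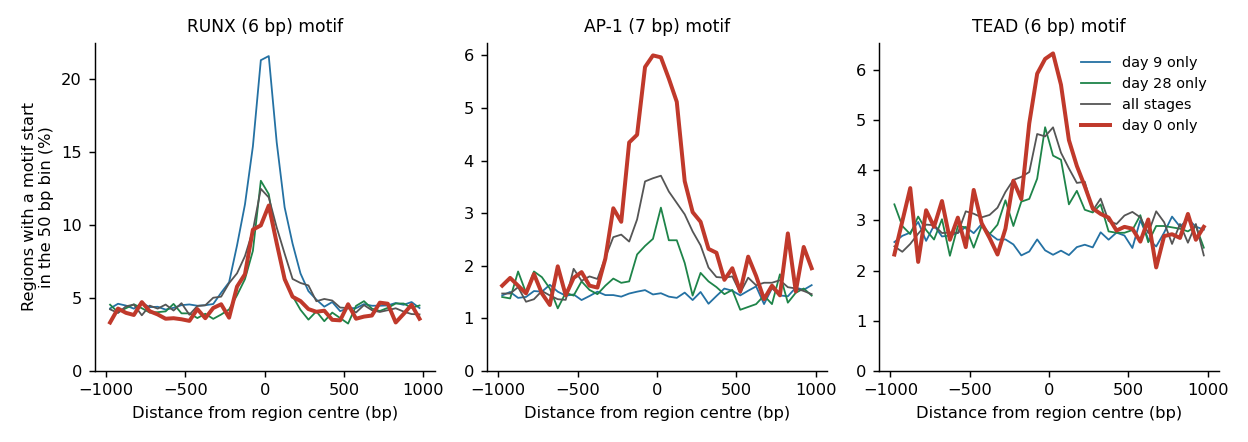
Share of distal regions (vertical axis, %) with the middle of a RUNX, AP-1 or TEAD motif in each 50 bp bin, by distance from the region centre (horizontal axis, bp), for day 0 only, day 9 only, day 28 only and all stages. Bins were assigned by the middle of the motif, although the axis label names its start. All 3 motifs peak at the centre of day 0 only regions, where RUNX reaches 11.3%, AP-1 6.00% and TEAD 6.33% of regions in a bin, while the day 9 only lines for AP-1 and TEAD stay flat. Regions with the CACACACA repeat are included in all lines.

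No difference from regions bound at day 0 and 1 later stage was detectable for either motif. Regions shared by days 0 and 9 held the AP-1 motif in 11.7% of centres and those shared by days 0 and 28 in 10.7%, from which the day 0 only regions differed by -0.70 points (-3.25 to 1.62) and 0.27 points (-2.07 to 2.42). For the TEAD motif the corresponding differences were 2.01 points (-0.42 to 4.20) and 0.55 points (-1.84 to 2.75). Regions bound at all stages had lower shares, 6.88% for AP-1 and 8.97% for TEAD, with differences of 4.13 (2.87 to 5.47) and 2.81 points (1.49 to 4.21). The E-box CAGCTG, bound by E2A and myogenic factors, went the other way. It was present in 5.96% of day 0 only centres, 3.83% of their flanks and 9.32% of all distal regions, and the day 0 only share differed by -7.45 points from that of day 28 only regions (-8.86 to -6.03), by -3.93 points from that of all stages and by -1.47 points from that of day 9 only, or by -3.49 points (-4.48 to -2.41) with CACACACA regions left out of both. Regions shared by days 0 and 28 held it in 5.52% of centres, a difference of 0.45 points (-1.34 to 2.02), so that a low share was not particular to day 0 only regions.

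**Figure D3:**
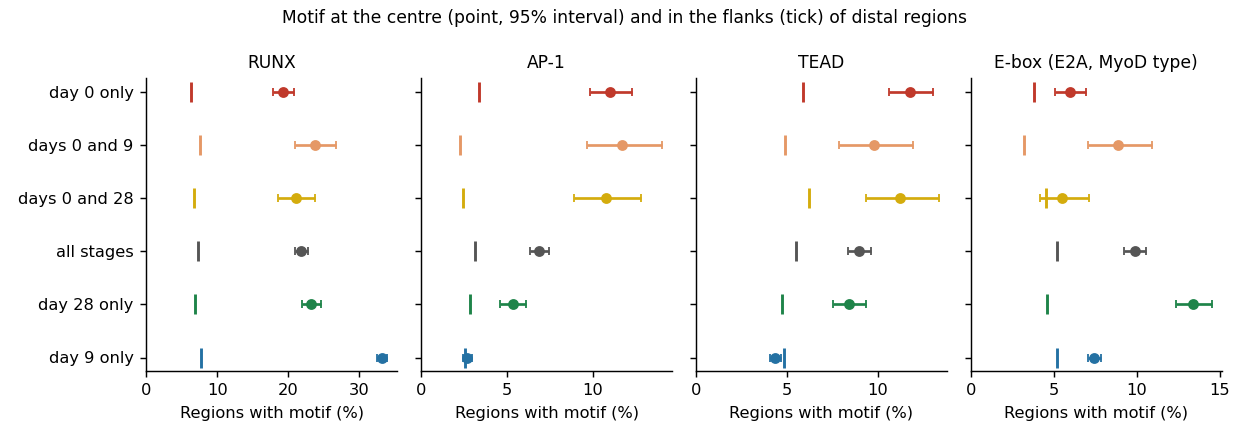
Share of distal regions (horizontal axis, %) with a RUNX, AP-1, TEAD or E-box motif within 50 bp of the centre (points, with exact 95% intervals) and in the flanks (ticks), for 6 patterns of binding (vertical axis). AP-1 shares of 10.7% to 11.7% are seen in day 0 only regions and those shared by day 0 and 1 later stage, against 2.69% for day 9 only.

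Since day 0 only regions had low scores, motif shares were also compared within score ranges with regions bound at all stages. In the range from 100 to 150 the AP-1 share was 12.6% in 1333 day 0 only regions and 7.39% in 1447 regions bound at all stages, a difference of 5.21 points (2.98 to 7.47). Between 200 and 300 it was 10.2% against 6.01%, a difference of 4.15 points (1.36 to 7.43). From 150 to 200 (9.09% against 6.46%) and from 300 upwards (9.19% against 7.09%) the intervals of the difference included 0. The TEAD share was higher by 3.57 points (1.41 to 5.76) from 100 to 150, by 6.91 points (3.73 to 10.4) from 150 to 200 and by 3.83 points (0.50 to 7.89) from 300 upwards, and from 200 to 300 the shares were 9.29% and 8.17% with an interval that included 0. For the RUNX motif the interval included 0 in each of the 4 ranges, with shares of 18.2%, 18.4%, 20.3% and 23.1% in day 0 only regions from the lowest range to the highest, and 20.9%, 21.7%, 22.2% and 22.0% in regions bound at all stages.

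At least 1 of the 3 motifs was present in 987 day 0 only centres (36.3%). A RUNX motif alone was found in 403 regions, an AP-1 motif alone in 220 and a TEAD motif alone in 216. Pairs were rare, with RUNX and TEAD in 69 regions, RUNX and AP-1 in 44, and AP-1 and TEAD in 28, and all 3 occurred in 7 regions. The remaining 1729 held none of them. Among regions with an AP-1 motif 17.1% (13.0 to 21.8) also held a RUNX motif, and among those without one 19.5% (17.96 to 21.17) did. Among regions with a TEAD motif 23.8% (19.2 to 28.8) held a RUNX motif, and among those without one 18.7% (17.1 to 20.3) did. Neither difference was tested, and separate intervals that overlap do not show that the shares are alike. The shares were similar in introns, upstream and intergenic sequence, with RUNX at 19.4%, 19.6% and 18.9% and AP-1 at 10.7%, 10.5% and 11.7%.

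A survey of all hexamers, with reverse complements joined, was also made, since it names no motif in advance. Of 1577 hexamers present in at least 1% of flanks, 115 (7.29%) were at least 1.5 times as frequent at the centres of day 0 only regions as in the flanks, and 112 (7.1%) had a ratio of 0.67 or less. The highest ratios belonged to AACCAC (3.10) and ACCACA (3.02), of which the latter is the RUNX motif on its other strand and the former overlaps it by 5 bases. TGCCAA followed with 2.55, a sequence that holds the half-site TTGGC of NFI factors on its other strand. Its ratio was 1.26 in day 9 only regions, 1.86 in day 28 only regions and 1.72 in regions bound at all stages. GACTCA (2.36) and GAGTCA (2.23), parts of the AP-1 motif, came next but for GCCACA (2.23), and had ratios of 1.01 and 0.947 at day 9 only. They were also more frequent at the centre at day 28 only (1.41 and 1.49) and at all stages (1.52 and 1.65). TTGGC itself, counted after this survey, was present in 26.1% of day 0 only centres, 13.5% of flanks and 21.3% of all distal regions. Its share exceeded that at day 9 only by 10.2 points. With CACACACA regions left out of both, the excess was 5.91 points (4.12 to 7.74). The day 0 only share differed by 0.54 points (-1.62 to 2.71) from that at day 28 only. Regions shared by days 0 and 9 held TTGGC in 24.7% of centres, a difference of 1.45 points. For days 0 and 28 the share was 23.9% (2.16 points), and for all stages 24.6% (1.54 points). Each of these intervals included 0, so no excess of day 0 only regions over these classes was detectable.

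Day 0 only regions were unevenly spread along the genome. They made up 6.22% of all 43666 distal regions, 12.2% on chromosome 19 (186 regions, 10.6 to 13.9), 12.6% on chromosome X (60 regions, 9.74 to 15.9) and 8.75% on chromosome 2 (337 regions). Leaving aside chromosome Y, with 0 of 2 distal regions, the lowest shares were 2.73% on chromosome 17 and 3.78% on chromosome 1. Per Mb, chromosome 19 held 3.03 day 0 only regions against 1.02 over all chromosomes, and chromosome X held 0.36. Copy number of the chromosomes in this line was not measured here, and its part in these shares was not tested.

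**Figure D4:**
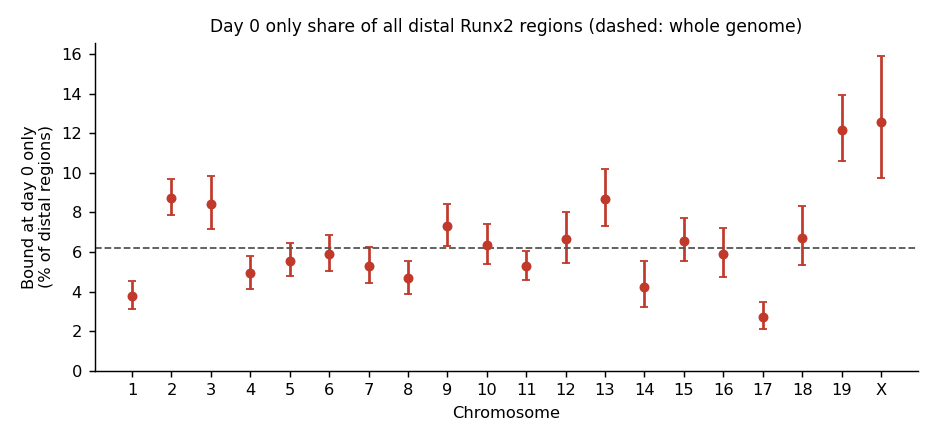
Day 0 only regions as a share of all distal regions (vertical axis, %) on each chromosome (horizontal axis), with exact 95% intervals. The dashed line is the share over all chromosomes, 6.22%, and chromosomes 19 and X stand above it at 12.2% and 12.6%.

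Of the 2716 regions 1043 (38.4%) had another member within 50 kb, in 426 runs, and 45 runs held 4 or more. The same count was not made for other distal regions, so whether such grouping is particular to the members was not tested. The longest was a run of 16 regions over 148 kb, chr9:41321664-41469515, around the gene 2610203C20Rik, with scores from 107.7 to 517.43. In the GENCODE annotation 12 of the 16 centres lay within the lincRNA D230004N17Rik (chr9:41283020-41423263). The 3 microRNA genes inside the run were looked up after it was found, and their sequences matched the RefSeq hairpins of Mir100, Mirlet7a-2 and Mir125b-1. The nearest member centre lay 1.36 kb from Mir100, 3.94 kb from Mirlet7a-2 and 0.403 kb from Mir125b-1. Around 2610203C20Rik these 16 made up most of the 21 distal regions, which included 3 bound at all stages and 1 bound at day 9 only.

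The genes nearest to the members numbered 2043 of 22359 protein-coding genes (9.14%), and 1584 of them had 1 member. By comparison 8171 genes (36.5%) were nearest to a distal day 9 only region. After 2610203C20Rik came Rarb with 8 members, all intronic, with scores from 100.78 to 1010. Next were Cald1, the actin-binding protein caldesmon, Tcf7l2, a DNA-binding effector of Wnt signalling, and 2010111I01Rik, with 6 each. Of the 12 genes with 5 members, those with the highest-scoring regions were 4930425F17Rik, Ankrd1, Thsd4, which takes part in microfibril assembly, Grb14, an adaptor of the insulin receptor, and Pappa2, a protease that cleaves an IGF-binding protein. For Ankrd1 the 5 scores were 973, 134.74, 437, 1192 and 166, and the regions lay 9.64 to 94.9 kb before its start. They were 5 of its 6 distal regions, and the other was bound at days 0 and 9. Grb14 also had 5 of its 6 distal regions bound at day 0 only, with scores of 100.48, 110, 564, 224 and 222. Around Tcf7l2, by contrast, the 6 members stood among 37 distal regions. Rarb and Cald1 were intermediate, with 8 of 15 and 6 of 16.

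Gene lists of 10 functions were then described by how many of their genes were nearest to a day 0 only region, beside 9.14% over all genes. No test was made of these lists, which were chosen with earlier results of these data known. Their intervals count regions near the same gene as separate, so they describe the lists and give no support for enrichment. Genes with wide surroundings collect more regions, and the median length of sequence nearest to a gene, within 100 kb, was 46.5 kb over all genes but longer in 9 of the 10 lists. The share of day 0 only regions among all distal regions nearest to the genes of a list, 6.22% over all genes, is therefore given as well.

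Matrix and adhesion genes led by count, with 22 of 29 genes (75.9%) nearest to a day 0 only region and 86.2% nearest to a day 9 only region. Their 29 members were 11.1% (7.57 to 15.6) of 261 distal regions, and their median surroundings were 140 kb. The strongest lay near Cd44, the hyaluronan receptor (635.63), Fbln5, an elastic fibre protein, in an intron of Trip11 (447), Itgav, the alpha V integrin subunit (395), and Lox, which crosslinks collagen (293). The Cd44 region lay 33.2 kb before its start, and a peak of another stage lay 0.899 kb away.

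Growth factors and their receptors followed with 16 of 37 genes (43.2%), against 56.8% at day 9 only, and their 30 members were 13.5% (9.26 to 18.6) of 223 distal regions. The strongest were near Lif, a cytokine of the interleukin 6 family, at 72.4 kb (782), in an intron of Pdgfrb, a receptor of platelet-derived growth factor (573), near Tgfb3 (338) and near Hbegf, a ligand of the EGF receptor (326). Egfr itself had 5 members and Fgf7 had 4. Among mesenchymal transcription factors 12 of 34 genes (35.3%; 76.5% at day 9 only) had a member, with 17 of 222 distal regions (7.66%). Their highest scores were 302 near Id3, an inhibitor of helix-loop-helix factors, 263 near Osr1, an odd-skipped zinc finger factor, 224 near Tbx18, a T-box factor, and 195 near Nr2f2, an orphan nuclear receptor.

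AP-1 and Yap/Tead genes had a member at 6 of 24 (25%; 66.7% at day 9 only), and their 13 members were 9.49% (5.15 to 15.7) of 137 distal regions. They included Ankrd1, Jun, a subunit of AP-1 (468, at 49.1 kb before its start), Tead1 (157) and Amotl2, a partner of Yap (144). In the muscle list 5 of 22 genes (22.7%; 54.5% at day 9 only) had a member. The 11 members were 10.3% (5.24 to 17.7) of 107 distal regions, with an interval that included the 6.22% over all genes. Among them were regions near Actc1, cardiac actin (388), Tpm1, a tropomyosin with 5 members (268), and Pax3, a factor of muscle precursors (137).

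The lists of osteoblast, adipocyte, cartilage and cell cycle genes had shares of distal regions below that over all genes, with intervals that included it. Osteoblast genes had a member at 6 of 30 (20%; 56.7% at day 9 only), and the 7 members were 3.43% (1.39 to 6.94) of 204 distal regions. They lay in an intron of Sparc, a matrix glycoprotein (455, with a peak of another stage 0.085 kb away), near Col1a2 (203), in an intron of Runx2 itself at 24.3 kb from its start (184), and near Bmp4 (170). Adipocyte genes had a member at 4 of 19 (21.1%; 63.2% at day 9 only), with 5 of 124 distal regions, and these were near Ebf1 (233), Ppargc1a (226), Insig1 (128) and Klf4 (104). Cartilage genes had one at 2 of 16 (12.5%; 68.8% at day 9 only), Pthlh (207) and Sox9 (120). Cell cycle inhibitors had one at 3 of 21 (14.3%; 76.2% at day 9 only), Cdkn1b, the inhibitor p27 (631), Gadd45b (198) and Btg1 (101.04). Cell cycle drivers had one at 2 of 33 (6.06%; 39.4% at day 9 only), Mcm3, a subunit of the replicative helicase (574), and Myc (202).

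**Figure D5:**
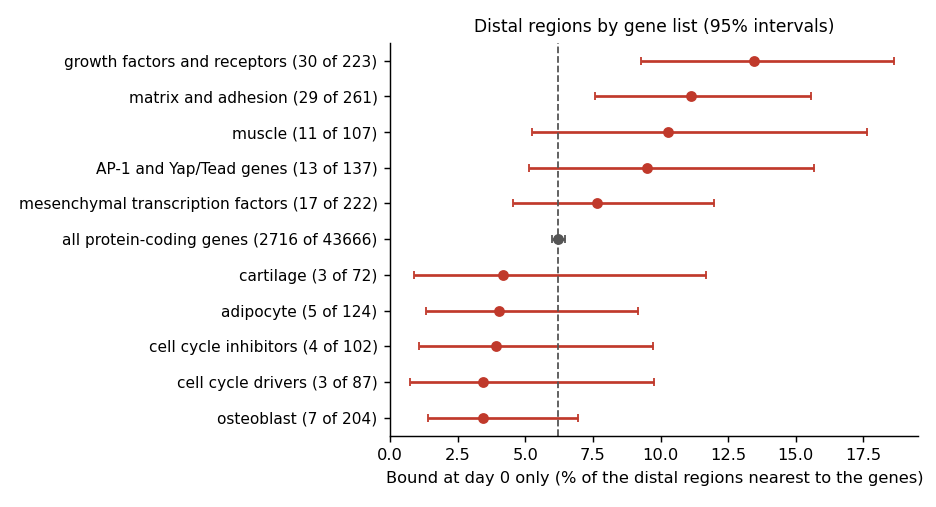
Day 0 only regions as a share of all distal regions nearest to the genes of each list (horizontal axis, %; points with exact 95% intervals), with the counts in the labels (vertical axis). The dashed line is 6.22%, the share over all genes, and the intervals of growth factors and receptors (13.5%) and of matrix and adhesion genes (11.1%) lie above it. The lists were chosen with earlier results of these data known, so the intervals are descriptive only.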

How the data were processed

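Runx2 ChIP-Seq was measured at 3 stages of MC3T3-E1 differentiation. Per the study's methods and the submitters' processing notes, the authors aligned reads (CASAVA 1.6, Bowtie 0.12.8) to mm9, pooled the 2 libraries of each stage and called peaks with MACS 1.4.1 against pooled day 9 input at p below 1e-10. The deposited score of each peak is 10 times -log10 p. Scores depend on depth and were not compared between lists. The peak lists hold no read counts.

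Here peaks were merged where they shared 1 bp and annotated with GENCODE M1 (22359 protein-coding genes) on NCBIM37, with Python 3.11.15, NumPy 2.4.6, SciPy 1.17.1 and pysam 0.24.0. Figures were drawn with Matplotlib 3.10.9. Upstream regions lay within 20 kb before a start site. Both strands were searched for motifs lying wholly within 50 bp of the centre, and flanks of the same total length served as control. The flanks were split on either side of the centre, so they offered slightly fewer positions for a whole motif than the centre did. Shares have exact Clopper-Pearson intervals, medians order-statistic intervals and differences Newcombe intervals. No hypothesis test was run, since each stage is 1 list. Merging, motif counts and intervals were tested on simulated data.

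Named regions are the 10 highest and 3 lowest by score and those nearest the distance limits. Named genes are those nearest to these regions, the 10 with the most members (ties by highest score) those of the sequences shown and up to 4 genes per list by score. Further genes were named after their values were seen: Egfr and Fgf7, and the microRNAs. The value of 1 gene is not reported here. No sequence of chromosome 18 was printed, which left out the Sh3rf2 region. The members, lists and rule were chosen with earlier results of these data known. TTGGC was added after the data were seen. Alternatives changed the peak threshold, the overlap, the annotation and distance, and the motif and its window.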

Additional observations from a re-analysis of the deposited data

How the results depend on the processing

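No paired analysis was possible because each stage is 1 pooled list. Under 17 alternative settings 182 values were recomputed, of which 132 stayed within the interval of the value above (counts within 1.5 times, GC within its quartiles). The AP-1 and TEAD differences, whose alternatives were chosen after seeing the data, had an interval above 0 in 46 of 48 cases, the exceptions being day 28 only at a day 0 threshold of 1e-50 (2.19 points for AP-1, 4.55 points for TEAD), where 112 regions were left. In the values that moved the cause was not tested, apart from fewer or more regions, or fewer later peaks, entering by construction.

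With a p-value of 1e-20 in all lists there were 1590 regions and 1292 nearest genes, a RUNX share of 21.9%, a difference from day 28 only of 0.51 points, which is a reversal, and 68.6% of regions without a later peak within 5 kb. With 1e-20 in the day 0 list alone these were 822 regions, 718 genes and 21.5%, with differences of -11.5 points from day 9 only and -1.34 from day 28 only. With 1e-50 there they were 112 regions, 104 genes, 22.3%, -10.7 and -0.67 points, 42.0% in introns and 54.5% without a later peak. Equal numbers of top peaks gave 5511 regions, 3597 genes, -20.1 and -1.88 points and 70.2% without a later peak. The intervals of the difference from day 28 only included 0 under each of these settings. They were -4.31 to 1.85 with 1e-20 in the day 0 list, -7.50 to 7.97 with 1e-50 there and -3.98 to 0.16 with equal numbers. Centres within 250 bp gave a RUNX share of 16.4%, a ratio of 2.26, 49.0% in introns and 42.7% without a later peak. That last share was 68.0% with peaks closer than 1 kb merged, 60.3% with all transcripts and 55.2% within 50 kb, where introns held 48.9%. Counting TGCGGT too gave a share of 20.9%. A window of 100 bp gave 34.8%, a ratio of 2.56 and differences of -10.7 from day 9 only and -1.70 from day 28 only. Leaving out CACACACA regions, chosen after seeing the data, gave -12.1 from day 9 only. The flanks of the far alternative lay 950 to 1000 bp from the centre. The number of day 0 only regions thus depended on the threshold, and peaks near it in another list cannot be told from absent ones without reads.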

Other observations

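The remaining motifs differed in whether they were more frequent at the centres of day 0 only regions than in their flanks. Split flanks offer fewer positions for a whole motif, most of all a long one, so a slight excess at the centre is not evidence of centring. TGCGGT, a variant of the RUNX motif, was present in 1.84% of centres, 0.515% of flanks and 2.95% of all distal centres, and GGGCATG, part of the p53 site, in 1.84%, 1.105% and 2.11%. The C/EBP motif TTNNGNAA was found in 22.3% of centres, 20.3% of flanks and 13.5% of all distal centres, and the CCAAT box, bound by NF-Y, in 13.4%, 12.5% and 9.74%. AACAAAG, a motif of SOX and TCF factors, had shares of 2.76%, 2.69% and 1.67% in the same order, the E-box CACGTG of 1.29%, 1.07% and 2.07%, the ETS motif CCGGAA of 0.957%, 0.663% and 1.42%, and AGGGGGCG, part of the CTCF site, of 0.110%, 0.0736% and 0.396%. Day 9 only centres, part of all distal centres, held TTNNGNAA, CCAAT and AACAAAG in 7.16%, 7.40% and 0.78%. At day 28 only these shares were 21.1%, 12.7% and 3.24%. The day 0 only shares differed from the latter by 1.22 (-0.81 to 3.27), 0.74 (-0.92 to 2.43) and -0.48 points (-1.31 to 0.38). The GC box GGGCGG was present in 1.47% of day 0 only centres, 1.33% of flanks and 3.92% of all distal centres, and the first differed by -5.07 points from regions bound at all stages (-5.75 to -4.34). AGATAA, the GATA motif, was less frequent at the centre than in the flanks, with 3.39% against 6.89% (2.21% of all distal centres), as were the repeats CACACACA (2.03% against 4.86%; 12.04% of all distal centres) and GAGAGAGA (1.33% against 2.76%; 1.202% of all).

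In windows of 5 Mb, the highest numbers of day 0 only regions were 27 of 218 distal regions on chromosome 19 (5000001 to 10000000) and 27 of 151 on chromosome 9 (40000001 to 45000000), the window of the 16-region run. A second window of chromosome 19 (25000001 to 30000000) held 26 of 113, or 23.0%. A run of 6 regions on chromosome X (chrX:34936290-35086605) lay among the Rhox2 and Rhox4 homeobox genes, a family of closely related copies. How uniquely reads could be placed there was not tested.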
